A study of Mus musculus with 9 samples.

Results

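Open chromatin was followed at 9 mouse genes of the MYC dimerisation network, the MYC relatives Mycn and Mycl, the shared partner Max, the antagonists Mxd1, Mxd4, Mxi1, Mnt and Mga, and the alternative partner Mlx. Peaks of 9 ATAC-seq lists were merged by overlap into 117465 regions, and a region was given to the gene that holds its midpoint or, failing that, to the protein-coding gene with the nearest end within 100 kb on mm10. The 9 genes received 66 regions, and the 58 that at least 2 libraries held were analysed, out of 95786 such regions at 16446 genes. The other 8, 3 at Mxd1 and 1 each at Mycn, Mxd4, Mxi1, Mnt and Mga, had a peak in a single library. The members were chosen by name and not by a value in these files.

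The cells came from the bone marrow of C57BL/6 mice and were either long-term haematopoietic stem cells (LT-HSCs), which sustain blood formation, or multipotent progenitors (MPPs), their more proliferative descendants. Mice lacking both RXRα and RXRβ (RXRα/RXRβ-KO, here KO) gave 3 LT-HSC libraries (1, 2 and 4) and 2 MPP libraries (1 and 2), and wild-type (WT) mice gave 2 LT-HSC libraries (2 and 3) and 2 MPP libraries (1 and 2). The retinoid X receptors are nuclear receptors that bind DNA as pairs with each other or with other nuclear receptors, such as those for retinoic acid. Neither the age of the mice, the means of deletion nor the deleted exons are given in the labels, so peaks at Rxra and Rxrb check no genotype label. Lineage-negative cells of pooled animals were sorted, and nothing says that libraries came from separate pools, so a p-value weighs a difference against the spread of these libraries alone, which may be technical.

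Proteins of the MYC family bind DNA only as pairs with MAX, mostly at the E-box CACGTG, and activate genes for growth and division. MXD1, MXD4, MXI1 and MNT pair with MAX at the same sites and recruit SIN3 corepressors, and MGA joins a Polycomb-related repressor complex. MLX takes the place of MAX with some MXD proteins, MNT and the glucose-responsive factors MLXIP and MLXIPL. In mouse LT-HSCs Mycn overlaps in function with Myc, and the balance between MYC and its antagonists is known to bear on whether stem cells divide.

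The promoters of 4 of the genes hold the E-box at which proteins of this family bind, and they are shown with 2 promoters of Mxi1, whose regions differed most between the cell types. Each line gives 260 bases, 250 before and 10 after an annotated start, from RefSeq on GRCm38.p6 (the primary chromosomes of mm10), with the E-box in capitals. Mnt lies at chr11:74830674-74830933 on the + strand, Mlx at chr11:101087040-101087299 on the + strand, Max at chr12:76962239-76962498 on the − strand, Mxd4 at chr5:34187701-34187960 on the − strand, the first Mxi1 start at chr19:53310256-53310515 on the + strand and the second at chr19:53329163-53329422 on the + strand.
Max: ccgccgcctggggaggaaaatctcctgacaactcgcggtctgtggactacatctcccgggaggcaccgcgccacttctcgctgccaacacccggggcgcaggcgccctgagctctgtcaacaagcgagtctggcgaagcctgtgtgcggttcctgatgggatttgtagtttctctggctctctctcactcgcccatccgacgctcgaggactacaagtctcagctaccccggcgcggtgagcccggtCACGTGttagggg
Mxd4: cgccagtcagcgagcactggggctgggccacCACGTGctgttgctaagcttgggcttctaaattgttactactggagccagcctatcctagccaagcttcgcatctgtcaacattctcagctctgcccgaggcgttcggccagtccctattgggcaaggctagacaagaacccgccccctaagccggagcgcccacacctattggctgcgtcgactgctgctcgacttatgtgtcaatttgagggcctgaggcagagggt
Mnt: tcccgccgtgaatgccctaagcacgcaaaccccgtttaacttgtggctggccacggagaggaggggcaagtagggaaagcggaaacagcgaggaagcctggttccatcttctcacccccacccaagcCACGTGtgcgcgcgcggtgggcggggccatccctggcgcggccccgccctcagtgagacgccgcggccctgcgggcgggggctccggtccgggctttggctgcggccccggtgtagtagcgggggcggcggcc
Mlx: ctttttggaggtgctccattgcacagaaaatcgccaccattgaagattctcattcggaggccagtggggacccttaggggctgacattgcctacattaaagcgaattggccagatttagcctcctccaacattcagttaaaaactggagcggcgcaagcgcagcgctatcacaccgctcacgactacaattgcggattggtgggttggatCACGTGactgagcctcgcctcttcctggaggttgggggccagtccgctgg
Mxi1 start 1: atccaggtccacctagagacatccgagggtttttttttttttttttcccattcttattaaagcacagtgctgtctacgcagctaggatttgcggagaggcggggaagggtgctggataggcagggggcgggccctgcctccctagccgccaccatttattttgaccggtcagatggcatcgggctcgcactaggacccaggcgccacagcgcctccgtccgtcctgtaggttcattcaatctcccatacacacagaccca
Mxi1 start 2: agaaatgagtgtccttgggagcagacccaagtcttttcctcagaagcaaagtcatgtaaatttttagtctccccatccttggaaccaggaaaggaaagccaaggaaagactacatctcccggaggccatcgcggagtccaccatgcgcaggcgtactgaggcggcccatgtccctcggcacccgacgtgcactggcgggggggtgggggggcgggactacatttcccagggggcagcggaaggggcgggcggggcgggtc

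CACGTG, which reads the same on both strands, began 3 bases before the start of Max, 219 before that of Mxd4, 123 before that of Mnt and 40 before that of Mlx. It stood in 4 of the 11 annotated start windows of the 9 genes (300 bases each, 250 before and 50 after the start), which is 36.4%. Among all 31365 such windows 7.14% held it, and among the 8385 windows that overlap a region held by all 9 libraries 10.7% did. The nuclear receptor half-site AGGTCA, searched on both strands, was in 0 of the 11 windows, against 16.3% of all windows and 10.8% of those 8385. Its direct repeat with 1 base between, AGGTCANAGGTCA, which contains the half-site, was in 0 of the 11 and in 0.0383% of all. A match or its lack describes these letters in these windows only.

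The lists differed in length. LT-HSC lists held 22690 (KO 1), 43126 (KO 2), 71586 (KO 4), 50023 (WT 2) and 22878 (WT 3) peaks, and MPP lists held 78189 (KO 1), 86353 (KO 2), 85471 (WT 1) and 80451 (WT 2), so that LT-HSC KO 1 and WT 3 stood apart as the shortest. Read depth is unknown. Among markers of the sorted cells, regions of 8 LT-HSC genes (Procr, Slamf1, Mecom and others) had peaks at 17.2% to 77.4% in LT-HSC and 59.1% to 67.7% in MPP libraries, and regions of Flt3, Cd48 and Cd34 at 21.9% to 65.6% in LT-HSC and 81.2% to 87.5% in MPP libraries. In the ranking explained below, 3 of 9 LT-HSC marker regions ranked higher and 0 lower in LT-HSCs, and 0 of 5 MPP marker regions ranked higher and 2 lower. Of all 13908 regions ranked there, 15.4% were higher and 15.3% lower. Markers of some mature cells differed in peaks held between the cell types too. The 7 regions of the T cell markers Cd3e and Cd4 had no peak in any LT-HSC library and had peaks at 85.7% to 100% in MPP libraries. Of all analysed regions, 31.0% had no peak in any LT-HSC library. The 36 regions of 4 mature myeloid markers had peaks at 8.33% to 44.4% in LT-HSC and 83.3% to 91.7% in MPP libraries, while the T cell marker Cd3g had no region. The part of these markers in the differences between the cell types below was not tested.

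**Figure D1:**
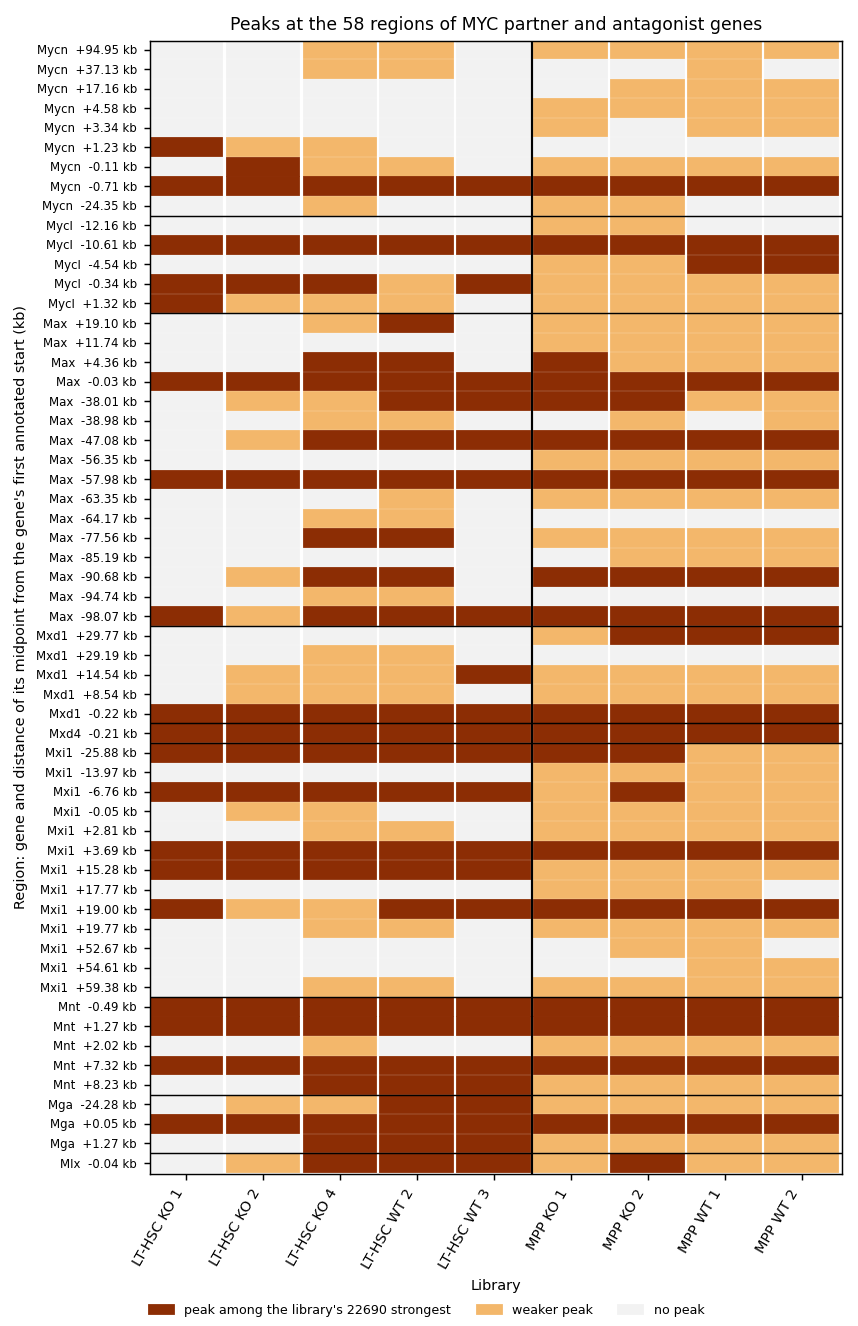
Peaks at the 58 member regions (rows, named by gene and by the distance of the midpoint from the first annotated start, in kb, positive in the direction of transcription) in the 9 libraries (columns). Dark cells are peaks among the 22690 strongest of a library, light cells weaker peaks and grey cells no peak. Every peak of LT-HSC KO 1 is dark, as its list has that length. Promoter rows of Mxd1, Mxd4, Max and Mnt are dark throughout, and the Mxi1 row at +15.28 kb is dark in the 5 LT-HSC libraries and light in the 4 MPP libraries.

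Every start of the promoter windows but that of Mycl lay in a region held by all 4 MPP libraries and by at least 2 LT-HSC libraries. The nearest Mycl region, held by all 9 libraries, ended 100 bases before that start. It covered the outer end of the Mycl gene as given by the gene ends. The start regions of Max, Mxd1, Mxd4, Mnt and Mga, and 1 that spans the 2 downstream starts of Mxi1, had a peak in all 9 libraries. Mlx lacked a peak in LT-HSC KO 1, Mycn in LT-HSC KO 1 and WT 3, and the first Mxi1 start in LT-HSC KO 1, WT 2 and WT 3. These 3 LT-HSC libraries include the 2 shortest lists. Over the 58 regions, 17 (29.3%) had a peak in all 9 libraries, where 14.5% of all analysed regions did. Of the 58, 13 (22.4%) lay within 1 kb of an end of their own gene. Of all analysed regions 17.9% lay that near an end of any protein-coding gene, which is a wider measure. Both were measured from the nearer edge of the region, whereas the other distances given are from its midpoint.

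The promoters of Mxd4, Mxd1 and Max were among the strongest regions of every library. Strength is given as a percentile among the 13908 regions held by all 9 libraries, ranked by the −log10 q-value of the peak, with 100 the strongest, so that all libraries rank the same regions. The Mxd4 promoter (chr5:34187588-34188253, 0.21 kb upstream of the start) stood at 90.7 (KO 1), 95.8 (KO 2), 99.97 (KO 4), 99.97 (WT 2) and 99.97 (WT 3) in LT-HSCs and at 99.9 (KO 1), 99.9 (KO 2), 99.8 (WT 1) and 99.9 (WT 2) in MPPs. At Mxd1 (chr6:86669029-86669735) the values were 89.0, 92.7, 98.3, 99.2 and 99.0 in LT-HSCs, in the same order of libraries, and 99.2, 99.3, 99.0 and 99.5 in MPPs. In both promoters LT-HSC KO 1 and KO 2 lay lowest and the groups overlapped. Max encodes the partner that MYC, MXD and MNT proteins need, and its promoter (chr12:76961875-76962688) stood at 84.1, 86.6, 97.8, 95.3 and 97.6 in LT-HSCs and at 95.4, 95.5, 96.0 and 95.3 in MPPs. Differences between LT-HSCs and MPPs at these 3 promoters were −2.12 ± 1.85 (Mxd4), −3.04 ± 1.91 (Mxd1) and −2.56 ± 2.74 (Max) percentile points (standard error, limma, averaged over the genotypes), with adjusted p of 0.406, 0.251 and 0.501. Without LT-HSC KO 4 all 3 passed the threshold as lower in LT-HSCs, at −3.24 (Mxd4), −4.28 (Mxd1) and −4.65 (Max) points with adjusted p of 0.0439, 0.00846 and 0.0104 (limma). In that run 28.4% of all regions passed as lower and 25.8% as higher, against 15.3% and 15.4% with all 9 libraries. Ranked by fold enrichment in place of the q-value, all 3 turned to higher in LT-HSCs, by 24.9, 18.5 and 17.9 points with adjusted p of 0.00176, 0.00941 and 0.00721, so no direction is given for them.

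The promoters of the remaining antagonists stood lower. Mnt, a widely expressed repressor, had 58.2, 45.3, 74.6, 71.3 and 86.5 in LT-HSCs and 77.0, 70.8, 70.0 and 75.6 in MPPs at its start (chr11:74829830-74831032). A second Mnt region 1.27 kb into the gene (chr11:74831800-74832584) had 45.2, 43.1, 69.1, 67.9 and 84.5 in LT-HSCs and 74.4, 73.1, 79.8 and 71.1 in MPPs. In both, LT-HSC KO 1 and KO 2 were the lowest libraries and LT-HSC WT 3 the highest. Mga had 54.5, 57.5, 37.7, 63.8 and 74.2 in LT-HSCs and 59.7, 58.7, 67.4 and 70.0 in MPPs at the start RefSeq lists (chr2:119896823-119897731). None of these 3 differed between the cell types past the threshold (adjusted p of 0.663, 0.290 and 0.624), and all 3 changed sign when ranked by fold enrichment. Without LT-HSC KO 4 the second Mnt region passed as lower in LT-HSCs (−14.4 points, limma, adjusted p = 0.0285), as did 28.4% of all regions. At the outer end of the annotated Mga gene, at −24.28 kb from that start, another region (chr2:119872361-119873537) had a peak in 8 libraries, missing in LT-HSC KO 1.

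The 2 MYC relatives had weaker regions near their starts. Mycl encodes L-MYC, and the region just upstream of its promoter-window start (chr4:122995349-122995831) stood at 14.2, 22.5, 8.65, 4.79 and 34.9 in LT-HSCs. In MPPs it stood at 8.74, 3.12, 11.9 and 8.30. The difference was 9.45 ± 6.32 points (limma, adjusted p = 0.279), and it was 17.04 points without LT-HSC WT 2. Mycn, which encodes N-MYC, had its strongest region 0.71 kb upstream of the start (chr12:12942299-12942797). It stood at 60.8, 55.2, 38.4, 42.5 and 47.3 in LT-HSCs and at 24.8, 32.5, 38.0 and 29.8 in MPPs. The 5 LT-HSC values were above the 4 MPP values, the nearest pair being 38.4 in LT-HSC KO 4 and 38.0 in MPP WT 1. The difference of 16.9 ± 6.79 points had an adjusted p of 0.0858 (limma), which became 0.00614 without LT-HSC KO 4. In that run 25.8% of all regions passed as higher in LT-HSCs. Over the start of Mycn itself (chr12:12941731-12942164) the authors' fold enrichment was 5.54 (KO 2), 4.86 (KO 4) and 3.94 (WT 2) in LT-HSCs and 5.99 (KO 1), 6.79 (KO 2), 4.52 (WT 1) and 6.14 (WT 2) in MPPs, a description within each list.

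Most of the changes in rank between the cell types lay at Mxi1, which encodes an MXD-type antagonist of MYC. Of the 17 member regions held by all 9 libraries, 3 ranked higher and 2 lower in LT-HSCs at an adjusted p under 0.05, where 15.4% of all 13908 regions ranked higher and 15.3% lower. Counts of 3 and 2 in 17 lie near those shares. Mxi1 had 3 of the 5, and they went in opposite directions. It also had the most regions among the 17, with 5, while Max and Mnt, with 3 each, had the other 2 calls. The median difference was −2.12 points over the 17 and −0.98 points over all 13908.

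Within Mxi1, a region 15.28 kb downstream of the first start (chr19:53325536-53326039) had the largest difference of the 17. Its percentile was 49.8 (KO 1), 62.7 (KO 2), 69.3 (KO 4), 65.6 (WT 2) and 54.8 (WT 3) in LT-HSCs, against 1.31 (KO 1), 0.62 (KO 2), 6.29 (WT 1) and 2.25 (WT 2) in MPPs. All LT-HSC libraries had it near or above the middle of the shared regions and all MPP libraries near the bottom, in both genotypes. The authors' fold enrichment was 6.65, 12.04, 16.4, 14.3 and 8.50 in LT-HSCs and 4.17, 4.03, 5.33 and 3.65 in MPPs. The difference was 57.8 ± 6.18 points (limma, adjusted p = 0.000351). Without the 2 shortest lists it was 73.4 points, on another scale, that of the regions held by all remaining libraries. In each LT-HSC list this peak was among the 22690 strongest and in no MPP list was it. The list of LT-HSC KO 1 has that length, so all of its peaks count as such, and this one was at place 8140.5. In such bulk libraries, more cells open at a site and more open chromatin per cell cannot be told apart.

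Upstream of Mxi1, at −25.88 kb from the first start, another region (chr19:53284320-53284935) had 46.9, 69.8, 63.2, 54.8 and 53.5 in LT-HSCs and 21.1, 19.1, 17.3 and 13.6 in MPPs. No LT-HSC value fell below an MPP value, and the difference was 39.3 ± 6.52 points (limma, adjusted p = 0.00251). The region that spans the 2 downstream starts of Mxi1, 19 kb into the gene (chr19:53329180-53329824), went the other way. It had 1.69, 3.54, 0.01, 6.74 and 15.1 in LT-HSCs and 34.3, 22.1, 32.5 and 47.1 in MPPs, so that every LT-HSC library was below every MPP library, and the difference was −27.7 ± 5.08 points (limma, adjusted p = 0.00398). The second of the Mxi1 promoter sequences above lies in it but for its first bases. Between them, a region 3.69 kb into the gene (chr19:53313706-53314679) was at 56.2 to 75.9 in LT-HSCs and 60.3 to 69.1 in MPPs, so the groups overlapped.

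Exact permutation over all labellings of the 9 libraries gave the 3 Mxi1 regions the smallest p that design allows, 0.00794, and an adjusted p of 0.0653 over all regions. By that test 0 of the 17 passed, and 0 of all 13908. Groups that do not overlap in this way were common: 15.0% of all 13908 regions had each LT-HSC library above each MPP library and 16.1% the reverse.

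**Figure D2:**
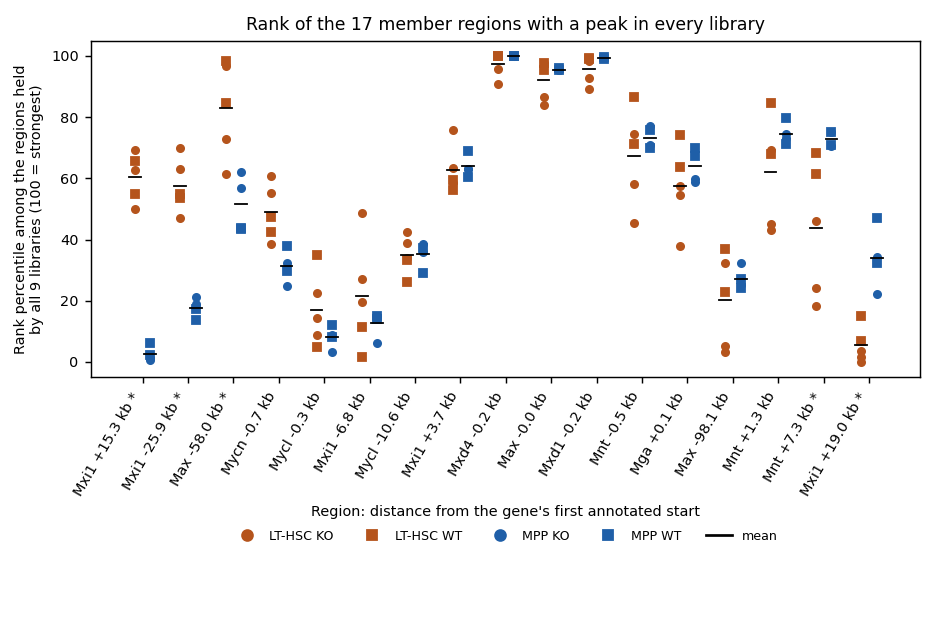
Rank percentile (vertical axis, 100 = strongest of the 13908 regions held by all 9 libraries) of the 17 member regions with a peak in every library, ordered by the difference, LT-HSC libraries left of MPP libraries, with circles for KO, squares for WT and bars for the mean of the cell type. Stars mark an adjusted p under 0.05. The groups do not overlap at the Mxi1 regions at +15.3, −25.9 and +19 kb. Nor do they, by a narrow margin, at the Mycn region at −0.7 kb and the Mnt region at +7.3 kb. The promoters of Mxd4, Max and Mxd1 stand at the top in both cell types.

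Max and Mnt gave the other 2 calls, and both were lost in runs with certain single libraries left out. In those runs a smaller share of all regions passed too, so these losses are not particular to the 2 regions. A region upstream of Max at −57.98 kb (chr12:77019913-77020537) had 61.3, 73.0, 96.8, 98.3 and 84.7 in LT-HSCs and 62.0, 56.7, 43.4 and 43.9 in MPPs, so that only LT-HSC KO 1 overlapped the MPP libraries. Its difference of 32.8 ± 7.45 points (limma, adjusted p = 0.00994) no longer passed without LT-HSC WT 2 (29.3 points, adjusted p = 0.0573). A region 7.32 kb into Mnt (chr11:74837618-74838868) had 18.4, 24.1, 46.1, 61.2 and 68.4 in LT-HSCs and 70.5, 75.3, 71.0 and 75.2 in MPPs. There LT-HSC KO libraries were lowest and LT-HSC WT libraries between them and the MPPs. Its difference of −25.8 ± 7.29 points (limma, adjusted p = 0.0252) had an adjusted p of 0.079 to 0.112 without LT-HSC WT 2, WT 3 or any single MPP library, was −15.1 points without the 2 shortest lists (adjusted p = 0.0571) and turned to 3.45 points (adjusted p = 0.648) when ranked by fold enrichment.

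**Figure D3:**
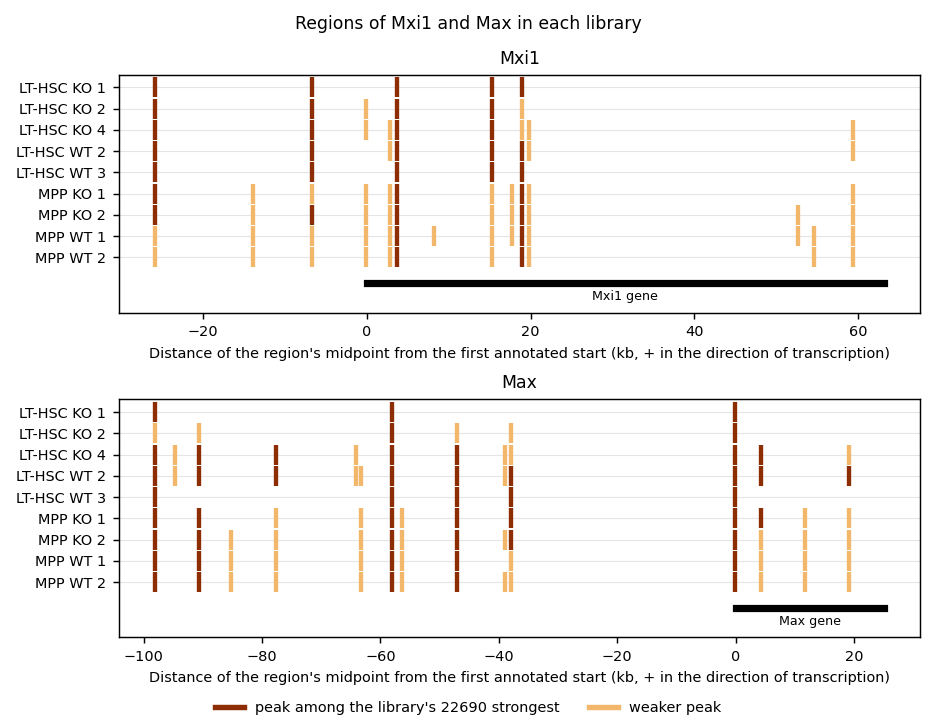
Regions of Mxi1 and Max by distance of the midpoint from the first annotated start (horizontal axis, kb, positive in the direction of transcription), with 1 row per library, dark ticks for peaks among the 22690 strongest of the library, light ticks for weaker peaks and a black bar for the gene. Mxi1 at +15.28 kb is dark in 5 LT-HSC rows and in no MPP row, and upstream of Max the libraries LT-HSC KO 4 and WT 2 hold most of the regions that MPPs hold. All ticks of LT-HSC KO 1 are dark, as its list holds 22690 peaks.

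Which of the 58 regions had any peak followed the length of the list. In LT-HSCs, KO 1 held 19, KO 2 held 28, KO 4 held 44, WT 2 held 41 and WT 3 held 24 of them, and in MPPs KO 1 held 48, KO 2 51, WT 1 51 and WT 2 49. As a share this is 32.8% to 75.9% in LT-HSC and 82.8% to 87.9% in MPP libraries, where all 95786 regions gave 22.8% to 65.6% in LT-HSC and 78.1% to 84.7% in MPP libraries. A set of 7 regions (12.1%) was held by LT-HSC KO 4, LT-HSC WT 2 and the 4 MPP libraries and by no other, against 7.99% of all.

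Gene by gene, the share of regions held was lower in LT-HSCs for 8 of the 9 genes, the exception being Mxd4, whose single region was held by all 9 libraries. Mycl alone passed the test (exact permutation, adjusted p = 0.0386), where 20.5% of all 16446 genes were lower and 0.079% higher. Of its 5 regions each LT-HSC library held 3 except WT 3, which held 2, while MPP KO 1 and KO 2 held 5 and MPP WT 1 and WT 2 held 4, a mean share of 56% ± 8.94 in LT-HSCs (SD, n = 5) and 90% ± 11.5 in MPPs (SD, n = 4). Without any one of the 9 libraries the difference of −34.0 percentage points stayed at −30.0 to −37.3, with an adjusted p of 0.0574 to 0.0855. In each of those runs 0.0% of all genes passed in either direction, so the loss of the call is not particular to Mycl. In lists cut to the 22690 strongest peaks the difference became 10, and there too 0.0% of all genes passed.

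Max, with 16 regions the largest set, had 48.8% ± 27.7 in LT-HSCs (SD, n = 5) and 82.8% ± 5.98 in MPPs (SD, n = 4), with 18.8%, 37.5%, 75.0%, 81.2% and 31.2% in the LT-HSC libraries KO 1, KO 2, KO 4, WT 2 and WT 3. The exact permutation test gave p = 0.0873. Mxi1, with 13 regions, had 50.8% ± 14.0 in LT-HSCs (SD, n = 5) and 90.4% ± 7.37 in MPPs (SD, n = 4), a difference of −39.6 points (exact permutation p = 0.0159, adjusted p = 0.0523), and Mycn, with 9, had 35.6% ± 21.4 in LT-HSCs and 69.4% ± 5.56 in MPPs. The median difference of the 9 genes was −24 points and that of all 16446 genes −40 points. In lists cut to the same length, 6 of the 9 (Mycn, Mycl, Mxi1, Mnt, Mga and Mlx) had a higher share in LT-HSCs than in MPPs. For example, Mxi1 then had a mean share of 35.4% in LT-HSCs and 21.2% in MPPs. By exact permutation 0 of the 9 passed there, as did 0.0% of all genes. The lower shares are therefore not read as less open chromatin, nor the higher ones as more. How many of all genes had either sign is not given.

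**Figure D4:**
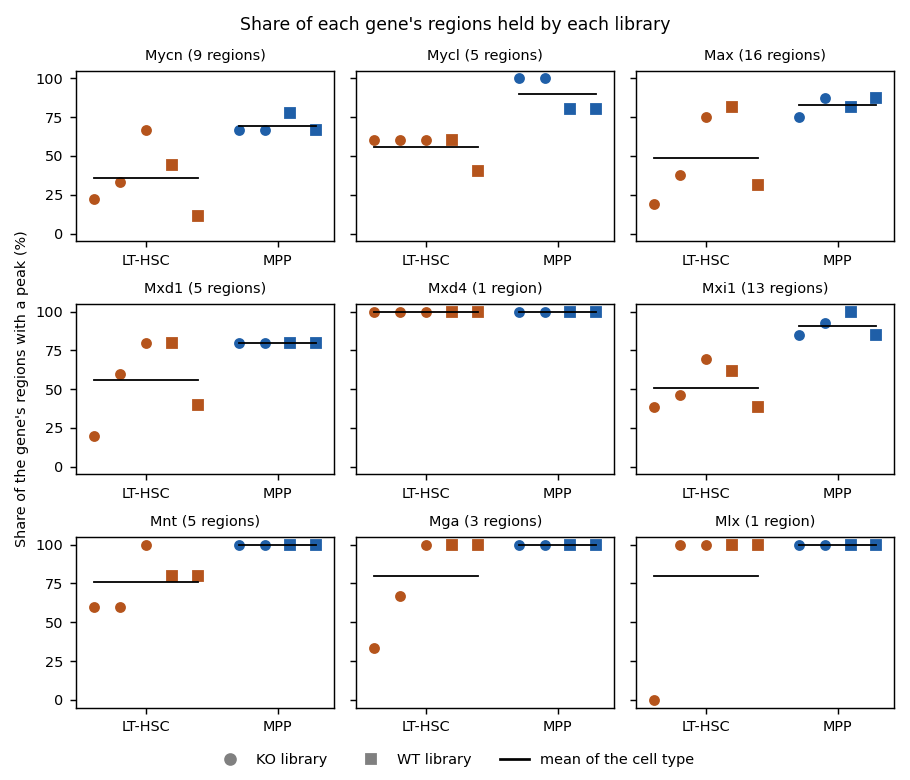
Share of the regions of each gene that had a peak (vertical axis, %), LT-HSC libraries left of MPP libraries, with circles for KO, squares for WT and lines for the mean of the cell type. LT-HSC libraries range between 18.8% and 81.2% at Max, and LT-HSC KO 1 lacks the single region of Mlx.

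In all, 6 regions were held by all 4 MPP and no LT-HSC library (10.3%, against 17.3% of all regions): 1 inside Mycn at +4.58 kb (chr12:12937092-12937427), 1 upstream of Mycl at −4.54 kb (chr4:122991175-122991612), 1 inside Max at +11.74 kb (chr12:76950318-76950696), 1 upstream of Max at −56.35 kb (chr12:77018423-77018779), 1 beyond the end of Mxd1 at +29.77 kb (chr6:86639134-86639652) and 1 upstream of Mxi1 at −13.97 kb (chr19:53296358-53296719). These were the 6 called lower in LT-HSCs among 24 tested (Fisher's exact test, adjusted p = 0.0245 each), where 31.9% of 52020 regions were lower and 0.442% higher. Most were weak in MPPs too: only the Mycl and Mxd1 regions were ever among the 22690 strongest peaks, in 2 and 3 of the 4 MPP lists. In lists of that length 0 of 10 were lower and 1 was higher in LT-HSCs, the Mxi1 region at +15.28 kb, where 21.1% of all regions were lower and 10.9% higher. No region had a peak in all 5 LT-HSC and no MPP library, against 0.24% of all, and 4 of 58 (6.90%) had none in any MPP library, against 7.09% of all.

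Loss of both receptors was compared within each cell type. For the share of regions held, 0 of the 9 genes passed (exact permutation within cell type, 60 labellings, smallest possible p 0.0167), and none of them reached an unadjusted p under 0.05, where 0.359% of all genes did and 0.0% passed after adjustment. Mycl came nearest (exact permutation p = 0.0667, adjusted p = 1.0). It was 15 points higher in KO, with 60%, 60% and 60% in LT-HSC KO against 60% and 40% in LT-HSC WT, and 100% and 100% in MPP KO against 80% and 80% in MPP WT. In lists of equal length this difference was −1.67 points.

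Of the 58 regions, 3 (5.17%) had peaks in KO libraries alone and 1 (1.72%) in WT libraries alone, against 5.63% and 2.64% of all regions. The 3 were 2 Mycn regions and 1 Mycl region, and those outside the gene are named after their values were seen. Inside Mycn, 1.23 kb after its start (chr12:12940375-12940843), LT-HSC KO 1, KO 2 and KO 4 had a peak and neither LT-HSC WT library nor any MPP library did, a pattern of 0.502% of all regions. The authors' fold enrichment there was 3.25, 3.29 and 3.17, and the peak was near the bottom of the list of KO 1 (place 22536 of 22690 peaks). With 3 against 2 libraries an exact test of it can give no p below 0.1. Presence by genotype could be tested at 1 member region, upstream of Max at −38.98 kb, which did not pass (stratified exact test, p = 1.0), and 0.0% of 1565 regions passed, with 2.49% at an unadjusted p under 0.05. Upstream of Mycn, at −24.35 kb (chr12:12966021-12966348), LT-HSC KO 4, MPP KO 1 and MPP KO 2 had a peak, and upstream of Mycl at −12.16 kb (chr4:122983582-122983964) both MPP KO libraries did.

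In MPPs, 44 member regions had a peak in all 4 libraries and were ranked among the 64003 such regions. Of these, 2 ranked higher in KO and 0 lower (limma, adjusted p under 0.05), where 0.784% of all ranked higher and 0.67% lower, and both lay upstream of Max. At −63.35 kb (chr12:77025405-77025795) the percentile was 36.3 (KO 1) and 41.2 (KO 2) in KO, against 3.02 (WT 1) and 0.41 (WT 2) in WT. The authors' fold enrichment was 10.1 and 12.6 in KO and 5.52 and 4.38 in WT, and in LT-HSCs the region had a peak in WT 2 alone. Its difference was 37.1 ± 7.60 points (limma, adjusted p = 0.033).

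The other, at −57.98 kb, is the Max region described above for its rank in LT-HSCs. It stood at 91.0 and 89.5 in MPP KO and at 84.2 and 84.6 in MPP WT, a difference of 5.85 ± 1.22 points (limma, adjusted p = 0.0353). In LT-HSCs the groups overlapped there, with 61.3, 73.0 and 96.8 in KO and 98.3 and 84.7 in WT on the scale of all 9 libraries. Both calls were lost when ranked by fold enrichment (adjusted p of 0.258 and 0.427), without the trend term of limma (0.185 and 0.337) and without MPP WT 1 (0.143 and 0.120) or MPP WT 2 (0.156 and 0.0544). The second was also lost without MPP KO 1 (0.105). Both KO libraries above both WT libraries was no rare order, at 23.9% of all 64003 regions, with 23.2% the reverse.

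Next in p were regions that missed the threshold. The Mycl region at −4.54 kb that LT-HSCs lacked stood at 46.7 and 44 in MPP KO and at 66.5 and 66.2 in MPP WT, a difference of −21.0 ± 6.41 points (limma, adjusted p = 0.109). A Max region at −38.01 kb (chr12:77000091-77000420) stood at 71.9 and 71.1 in KO and at 54.3 and 58.9 in WT (14.9 ± 4.803 points, limma, adjusted p = 0.124). In all, 6 of the 44 had an unadjusted p under 0.05, against 17.5% of all regions. Among the promoters, Max stood at 99.0 and 99.0 in MPP KO and at 99.1 and 99.0 in MPP WT, and Mga at 90.4 and 90.1 in KO and at 92.4 and 93.1 in WT (−2.48 points, limma, adjusted p = 0.165). The Mlx start stood at 61.0 and 70.3 in KO and at 49.8 and 60.01 in WT (10.74 points, adjusted p = 0.388), and the groups did not overlap, though the KO 1 and WT 2 libraries were close.

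**Figure D5:**
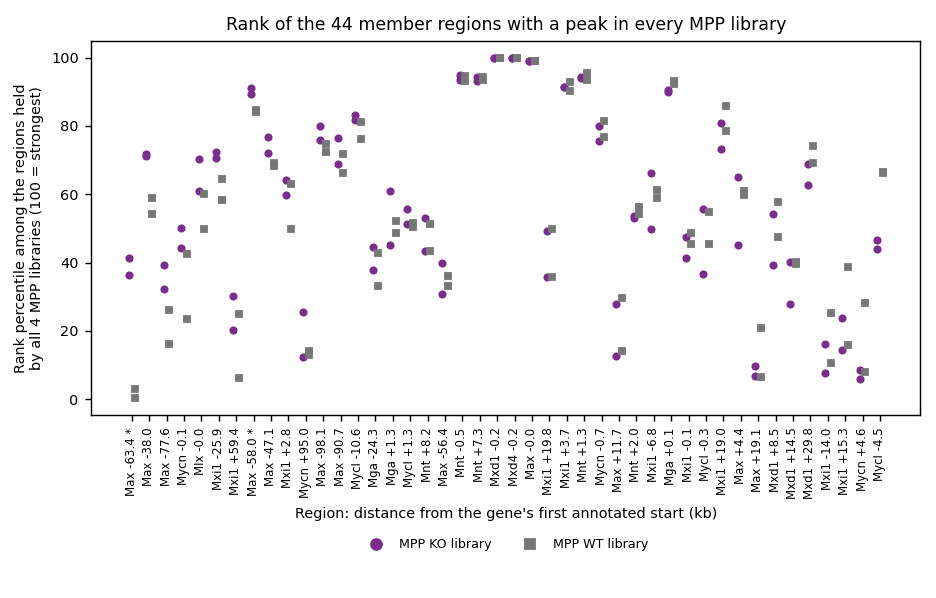
Rank percentile (vertical axis, 100 = strongest of the 64003 regions held by all 4 MPP libraries) of the 44 member regions with a peak in every MPP library, ordered by the difference, with circles for KO left of squares for WT. Stars mark an adjusted p under 0.05. The Max region at −63.4 kb stands at 36.3 and 41.2 in KO and at 3.02 and 0.41 in WT.

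In LT-HSCs, 0 of 17 member regions and 0.0% of all 14498 differed between KO and WT (limma, adjusted p under 0.05), with 2 of 17 at an unadjusted p under 0.05, against 13.6% of all. The Mnt region at +7.32 kb had the smallest p (0.0412, adjusted p = 0.363). Its percentile among the regions held by all 5 LT-HSC libraries was 18.7, 24.3 and 46.9 in KO and 62.5 and 69.6 in WT, so every KO library was below both WT libraries, and the difference was −36.0 points. The same region had the smallest p for a difference between the cell types in the effect of the KO (−35.1 points, limma, adjusted p = 0.56), where 0 of 17 and 0.0% of all 13908 passed and 2 of 17 and 8.75% of all had an unadjusted p under 0.05. LT-HSC KO 4 decided both counts. Without it, 0 of 17 ranked higher and 7 lower in LT-HSC KO, where 14.6% of all regions were higher and 13.8% lower. In the difference between the cell types, 1 was then higher and 6 lower, where 13.6% of all were higher and 15.0% lower.

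Among 36 further genes of the network (dimerisation relatives, E-box relatives, corepressors, coactivators, MYC turnover, MGA complex partners and MLX complex targets), with 173 regions, the share held was lower in LT-HSCs for 8, higher for 0 and changed by genotype for 0. The 8 are 22.2% of the 36, near the 20.5% of all 16446 genes that were lower. All 8 had the same p of 0.00794 (exact permutation, adjusted p = 0.0386), and 6 of them were Arrdc4, Txnip, Tfdp1, Wdr5, Cbx3 and Myc itself. Mean shares of the arrestin-like MLX targets were 20% in LT-HSCs and 93.2% in MPPs for Arrdc4, and 60% in LT-HSCs and 100% in MPPs for Txnip. Tfdp1, a partner of E2F factors, had 20% in LT-HSCs and 79.2% in MPPs, and Wdr5, a subunit of histone methyltransferases, had 24% in LT-HSCs and 80% in MPPs. Cbx3, a heterochromatin protein, had 50% in LT-HSCs and 100% in MPPs, and Myc 30.7% in LT-HSCs and 85.0% in MPPs. In rank, 1 of their 32 shared regions was higher and 6 lower in LT-HSCs, where 15.4% of all were higher and 15.3% lower, and 0 of 120 changed with genotype in MPPs, where 0.784% of all were higher and 0.67% lower in KO.

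Across the 9 libraries, the genes whose share of regions held was most like that of Max, among 2562 genes with at least 10 regions, were Jak1 (mean absolute difference 3.63 points) and Mapk14 (3.70 points), and those most like Mxi1 were Chd2 (3.81 points) and Nenf (4.33 points). These are descriptions over 9 libraries that share their list lengths.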

How the data were processed

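Tn5-based ATAC-seq libraries of sorted LT-HSCs and MPPs were sequenced as read pairs, per the labels' protocols. The authors deposited 1 list of MACS2 2.1.1 peaks on mm10 per library, per the submitters' processing notes. The sources used here do not give the aligner settings, the duplicate filter or the Tn5 shift. The deposited values per peak are a fold enrichment (a ratio), the −log10 of the p- and q-value and a display score. With no read counts, depth is unknown, and presence and rank depend on how many peaks each list holds.

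All 540767 peaks were merged wherever they overlapped by 1 bp or more. Genes were 20661 protein-coding genes of RefSeq GRCm38.p6 on chromosomes 1 to 19, given by their ends without exons, so exon and intron are not named. All 9 symbols matched the gene table and the promoter table. Two-sided exact permutation tests compared gene shares, Fisher's and stratified exact tests compared presence (for cell type, over regions in 3 to 6 libraries), and limma 3.58.1 in R 4.3.3 with a mean trend compared percentile ranks, each with Benjamini-Hochberg adjustment over all features and a threshold of 0.05. The scripts (Python 3.11.15, scipy 1.17.1) were tested on simulated data. Regions were named if within 1 kb of a gene end, past the threshold, or smallest in p. The members, lists and tests were chosen with earlier results of these data known. Alternatives covered list length, a stricter q-value, overlap, distance, ranking measure, trend, each library left out and replicate number as a block. Leaving out the 2 shortest lists together was added after seeing the data. Runs with libraries left out ranked the regions held by all remaining libraries, so their points are on another scale. The other 2 marker lists are not reported here.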

Additional observations from a re-analysis of the deposited data

Results flagged for a closer look

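Of 52 sets of 4 or 5 values checked (the share of regions held, by gene and cell type, and the rank percentile of shared regions), 4 had a library far from the others of its cell type. The rule is meant to flag about 1 in 20 sets of continuous values by chance. That rate does not apply to shares of few regions, where the other libraries can tie and any 1 differing library then stands apart. At Mycn, MPP WT 1 held 77.8% of the regions and each other MPP library 66.7%. At Mycl, LT-HSC WT 3 held 40% and each other LT-HSC library 60%. At Mlx, LT-HSC KO 1 held 0.0% (0 of 1 region) and each other LT-HSC library 100%. At the Mxi1 region 6.76 kb upstream of the first start (chr19:53303385-53304115), MPP KO 1 stood at a percentile of 6.26, against 14.9 in MPP KO 2, 14.0 in MPP WT 1 and 15.2 in MPP WT 2. In the first 3 the other libraries tied, so these are no excess over chance. They rest on 1 region each, and LT-HSC WT 3 and KO 1 have the 2 shortest lists.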

How the results depend on the processing

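Of the counts of members past the threshold recomputed under the alternatives, 159 were within 1.5 times the value reported and 35 were not. In lists of equal length, 0 genes in place of 1 had a lower share in LT-HSCs, 0 regions in place of 6 were lower in presence and 1 was higher, and the LT-HSC minus MPP difference in share changed sign at Mycn (4.44 points), Mycl (10), Mxi1 (14.2), Mnt (12), Mga (33.3) and Mlx (35.0), as did KO minus WT at Mycl (−1.67). Ranked by fold enrichment, 6 regions in place of 3 were higher and 1 in place of 2 lower in LT-HSCs. In that run 16.1% of all regions were higher and 14.8% lower. In MPP KO, 0 in place of 2 were higher. The LT-HSC minus MPP difference in rank changed sign at the start regions of Mga (5.21 points), Mxd4 (24.9), Mxd1 (18.5), Max (17.9) and Mnt (16.9). It also did so at the Mnt regions at +1.27 kb (12.6) and +7.32 kb (3.45). The exact permutation test in place of limma gave 0 higher and 0 lower. Without the trend term 0 were higher in MPP KO, by normal scores 1 was lower, and among regions held by all 9 libraries 0 were higher. The cause of these changes was not tested. In lists of equal length, and in every run with 1 library or the 2 shortest lists left out, 0.0% of all genes passed in share. A count of 0 genes in those runs is therefore not particular to the members. Leaving out 1 library at a time, with a lone library of a group assumed to vary like the others, gave 0 genes lower in share, 1 to 6 regions lower in rank in LT-HSCs, 0 to 2 higher in MPP KO, 0 to 7 lower in LT-HSC KO, and for the difference between the cell types in the KO effect 0 to 1 higher and 0 to 6 lower. Without the 2 shortest lists, 0 genes were lower in share, and 6 of 13 tested regions were lower in presence, as were 53.0% of all tested regions. In rank, 26 member regions were tested in that run in place of 17, so its counts are not compared. The 6 presence calls passed in every leave-one-out run that could be tested. A region with a peak in every MPP and no LT-HSC library stays so whichever library is left out, so passing does not weigh these calls. Of all tested regions, 79.3% to 89.5% were lower without 1 LT-HSC library and 50.5% to 54.2% without 1 MPP library. The run with 6 regions lower in rank was that without LT-HSC KO 4, where 28.4% of all regions were lower.

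Replicate numbers are shared between groups, but the deviations of same-numbered libraries correlated at −0.05 to 0.043, so the numbers were not taken as pairs. With the replicate block, 2 regions were higher and 2 lower in LT-HSCs, where 10.3% of all regions were higher and 9.58% lower. The Max region at −57.98 kb lost its call in that run (23.3 points, limma, adjusted p = 0.158). In MPP KO, 2 were higher and 0 lower, where 2.74% of all regions were higher and 2.74% lower. With depth unknown, a missing peak in a short list, such as those of LT-HSC KO 1 and WT 3, cannot be told apart from a closed region.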
